A study of Mus musculus with 8 samples.

Results

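The Hedgehog pathway was followed in dorsal skin of wild-type mouse embryos through 7 of its core genes, the ligand Shh, the receptors Ptch1 and Smo, the ligand-binding inhibitor Hhip, and the transcription factors Gli1, Gli2 and Gli3. Every probeset annotated to exactly one of these symbols was taken, which gave 18 probesets of the 34945 single-symbol probesets tested, or 7 of 18193 genes. Whole dorsal skin was profiled at embryonic day (E) 14.5 with 2 arrays, at E16.5 with 3 arrays and at E18.5 with 3 arrays, in a series on transcriptional programmes of epidermal differentiation. The embryos carried no allele or treatment named in the labels. Whether arrays of a stage came from different animals is not stated in the labels, and the p-values therefore cover only sample-to-sample spread, which may be technical.

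Hedgehog ligand binds Patched 1, which otherwise holds the membrane protein Smoothened inactive. Released Smoothened acts through the primary cilium to turn Gli2 and Gli3 from repressors into activators, and Gli1, Ptch1 and Hhip are themselves transcribed in response, the last 2 limiting the signal. In embryonic mouse skin Shh is made by the epithelium of the hair placode and bud, signals to both the epithelium and the underlying dermal condensate, and is needed for the bud to grow down into a follicle.

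Values are array signals on a linear scale without a unit, and tests used log2(signal + 16), so folds of dim probesets are understated on that scale. A probeset was taken as above background where its signal exceeded the 95th percentile of 78 odorant and vomeronasal receptor probesets on the same array. Of the 18 probesets, 17 were above background on all E16.5 and E18.5 arrays and 11 on both E14.5 arrays. Smo probeset 1442215_at was at or below background on all 8 arrays. A change was called where limma's p, adjusted by Benjamini-Hochberg over all 34945 probesets, was under 0.05, and each change is given on the log2 scale with its standard error (SE).

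The E14.5 arrays stood apart from the others in their controls. Their 3′ to 5′ signal ratios were 6.49 and 6.91 for actin, against 1.11 to 1.14 on the E16.5 arrays and 1.35 to 1.37 on those of E18.5, and their bacterial bioB spike control read 5287 to 5592, against 540 to 649 on the other arrays. Stage and array preparation cannot be told apart in any comparison with E14.5. Values at E18.5 and at E16.5 were not read on the E14.5 arrays. In the fit, the E14.5 arrays entered the later change through the shared estimate of spread. Whether the signals of all arrays were summarised together is not known, and any effect of this on the later arrays was not tested. The change from E16.5 to E18.5 is given first. Those stages differed in background too, at 92.7, 62.6 and 81.5 on the E18.5 arrays, against 42.1, 53.8 and 35.9 on the E16.5 arrays, without overlap.

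From E16.5 to E18.5, 6 of the 18 probesets rose and 0 fell by limma, where 6.27% of all probesets rose and 4.44% fell. At an unadjusted p under 0.05, 8 rose and 1 fell. All shares of probesets or genes given here and below are at the adjusted threshold, and none was counted at an unadjusted p. The 6 called probesets came from 3 genes, both Shh probesets, 3 of 4 Hhip probesets and 1 of 3 Ptch1 probesets. The median change over the 18 probesets was 0.26, beside 0.12 over all probesets. With the brightest probeset of each gene, 3 of 7 genes rose and 0 fell, where 6.9% of all genes rose and 5.23% fell. None of the 12 probesets outside the call belonged to Shh, while all 6 Gli probesets did not pass. The count depended on single arrays, with 1 probeset called (Shh 1436869_at) when any E16.5 array was left out, and 2, 3 and 4 when E18.5 array 1, 2 or 3 was left out. It was 2 after quantile normalization.

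Shh, the ligand, gave the largest called change among the 18. Its brighter probeset 1436869_at read 4226, 2872 and 2895 on the E18.5 arrays, against 946, 1209 and 1248 on the E16.5 arrays. Every E18.5 array lay above every E16.5 array, and the first E18.5 array was the highest. The signal was 2.91-fold higher at E18.5, a log2 change of 1.53 ± 0.19 (SE) with a 95% confidence interval of 1.11 to 1.95 (limma, adjusted p = 0.00129), and it stayed called under all 18 other settings. The dimmer probeset 1427571_at read 201, 268 and 218 at E18.5, against 101, 124 and 109 at E16.5. This was 2.05-fold higher, with a log2 change of 0.94 ± 0.25 and an adjusted p of 0.0407 that was lost under 9 of 17 other settings. Background was higher at E18.5 as well, and its part in the rise of this dimmer probeset was not tested. In whole skin, more Shh-expressing cells and more Shh RNA per cell cannot be told apart.

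Hhip binds Hedgehog ligand at the cell surface and limits its range. Its brightest probeset 1437933_at read 327, 448 and 384 on the E18.5 arrays, against 160, 151 and 159 on the E16.5 arrays. The log2 change was 1.21 ± 0.33 (limma, adjusted p = 0.0403), or 2.45-fold. Probeset 1455277_at read 317, 360 and 374 at E18.5, against 129, 125 and 145 at E16.5, a log2 change of 1.30 ± 0.28 (adjusted p = 0.0170). Probeset 1438083_at read 180, 236 and 130 at E18.5, against 74.4, 59.8 and 47.7 at E16.5, a log2 change of 1.35 ± 0.33 (adjusted p = 0.0285). The background was also higher at E18.5, and its part in the rises of these dim probesets was not tested. The remaining probeset, 1421426_at, read 248, 276 and 219 at E18.5, against 124, 146 and 120.0 at E16.5, and its log2 change of 0.85 ± 0.24 did not pass the threshold (adjusted p = 0.0507). For all 4 Hhip probesets every E18.5 array lay above every E16.5 array, and the 4 ratios ran from 1.90 to 2.96. The share of all probesets whose arrays lay apart in this way was not counted. The calls were less firm than the direction, since the 3 called probesets lost their call under 9 of 18, 3 of 17 and 6 of 17 other settings in the order 1437933_at, 1455277_at and 1438083_at, and 1421426_at was called under 8 of 17.

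Ptch1 encodes the receptor that Hedgehog ligand inactivates, and its transcription rises with pathway activity. Its 3 probesets disagreed. The brightest, 1428853_at, read 9901, 8550 and 10763 on the E18.5 arrays, against 6583, 7372 and 6063 on the E16.5 arrays, with no overlap. The log2 change was 0.54 ± 0.13 (limma, adjusted p = 0.0274), or 1.46-fold, and the call was lost under 8 of 18 other settings. Probeset 1439663_at moved the other way and did not pass, reading 1164, 860.3 and 1392 at E18.5 and 1537, 1785 and 1698 at E16.5 (log2 change -0.57 ± 0.18, adjusted p = 0.0746). The dimmest, 1450824_at, read 538, 489 and 320.2 at E18.5, against 247, 439 and 312 at E16.5, so its arrays overlapped (log2 change 0.42 ± 0.28, adjusted p = 0.365). The direction for Ptch1 therefore rests on the probeset used.

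Hhip and Ptch1 are known to be transcribed in response to the pathway. Each had a probeset with a called rise at E18.5 over E16.5, though for Ptch1 the direction rests on the probeset used. The promoters of both are shown here for these reasons. Each is the 250 bases before the start site that the RefSeq promoter table (GRCm38.p6) uses, given 5′ to 3′ on the strand of the gene. Those start sites lie inside the annotated genes, since RefSeq places the outermost 5′ end of Ptch1 further upstream and the Hhip window overlaps the gene, so other start sites are not covered. Capitals mark the letters CCACCC or its reverse complement GGGTGG, the core of the GACCACCCA motif bound by Gli proteins.
Hhip, chr8:80058009-80058258, minus strand: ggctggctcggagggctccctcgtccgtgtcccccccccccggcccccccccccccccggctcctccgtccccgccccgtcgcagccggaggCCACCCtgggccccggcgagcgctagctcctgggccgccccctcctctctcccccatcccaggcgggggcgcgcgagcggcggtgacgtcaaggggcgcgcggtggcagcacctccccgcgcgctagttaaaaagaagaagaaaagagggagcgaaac
Ptch1, chr13:63565736-63565985, minus strand: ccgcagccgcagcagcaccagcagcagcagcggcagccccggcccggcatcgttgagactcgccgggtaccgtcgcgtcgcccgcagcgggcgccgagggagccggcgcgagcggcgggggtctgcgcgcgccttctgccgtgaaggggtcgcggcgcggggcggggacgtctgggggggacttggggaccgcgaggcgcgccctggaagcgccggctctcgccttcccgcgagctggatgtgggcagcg
RefSeq promoter sequences were found for 5 of the 7 genes, Gli2, Gli3, Hhip, Ptch1 and Smo. The whole 9-letter motif, searched on both strands, was in 0 of these 5 windows and in 74 of 32851 promoter windows of the same length (0.225%). The 6-letter core, which lies inside the longer motif, was in 4 of the 5, all but Ptch1, and in 28.1% of all windows. The 5 windows were 67.2% to 78.4% G or C, and the share among windows of like composition was not counted. A match is only a match of letters, and an absent motif says only that these letters are not in this window.

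Smo encodes the transducer that Patched 1 restrains. Neither of its 2 probesets above background changed by the test. Probeset 1427049_s_at read 1890, 1412 and 1444 on the E18.5 arrays, against 1867, 1588 and 1762 on the E16.5 arrays, a log2 change of -0.14 ± 0.15 (adjusted p = 0.573). Probeset 1427048_at read 1728, 1246 and 1135 at E18.5, against 1929, 1536 and 1712 at E16.5, a log2 change of -0.35 ± 0.18 (adjusted p = 0.230). The arrays of the 2 stages overlapped for both.

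Gli1 encodes the activator that is itself switched on by the pathway and is often used as its readout. Its single probeset 1449058_at read 1480.3, 1426 and 1901 on the E18.5 arrays, against 1321, 1572 and 1612 on the E16.5 arrays. The stages overlapped, and the log2 change was 0.087 ± 0.17 (adjusted p = 0.773), with a 95% confidence interval from -0.28 to 0.45. The interval bounds any change of Gli1 but does not show that it was constant. Gli2, which carries most Hedgehog activator function in mouse skin, read 2759, 3397 and 2815 at E18.5, against 2310.0, 2621 and 2812 at E16.5, with probeset 1459211_at (log2 change 0.21 ± 0.15, adjusted p = 0.388). Its dimmer probeset 1446086_s_at read 1251, 1069 and 1042 at E18.5, against 880.1, 931 and 898 at E16.5, without overlap (log2 change 0.30 ± 0.13, adjusted p = 0.171). Gli3, mainly a repressor when the pathway is off, had log2 changes of 0.076 ± 0.12, 0.16 ± 0.12 and 0.14 ± 0.30 for probesets 1455154_at, 1456067_at and 1450525_at, and none passed (adjusted p = 0.717, 0.410 and 0.799).

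**Figure D1:**
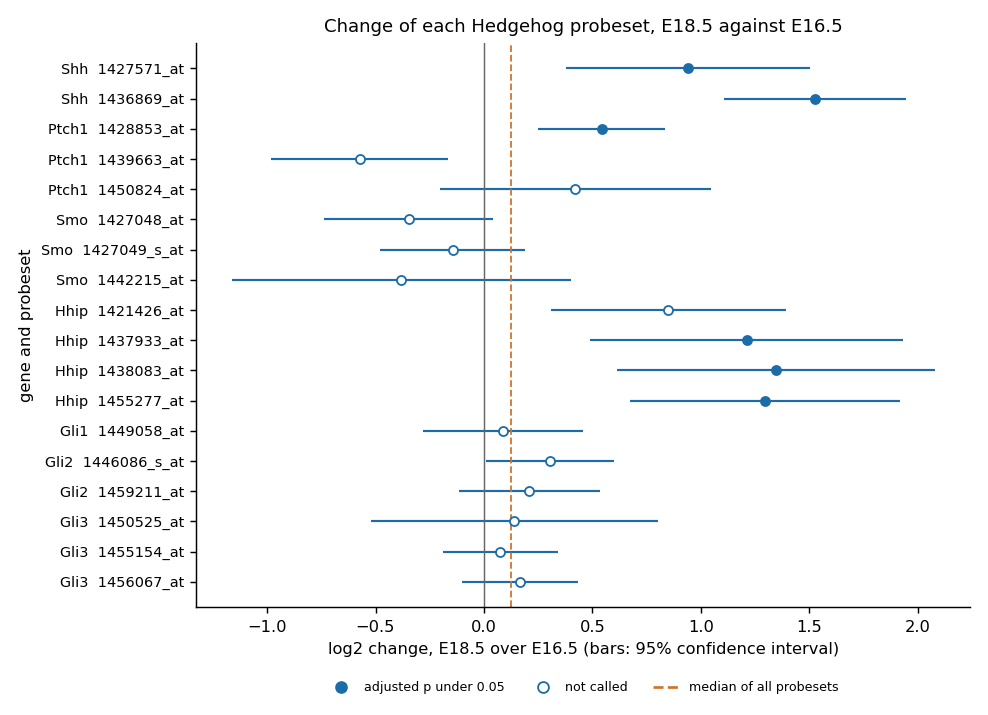
Log2 change of each of the 18 Hedgehog probesets, E18.5 over E16.5, with 95% confidence intervals, filled where the adjusted p from limma was under 0.05. The dashed line is the median of all probesets, 0.12; both Shh probesets, 3 Hhip probesets and 1 Ptch1 probeset are filled and lie to its right, and no Gli or Smo probeset is filled.

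**Figure D2:**
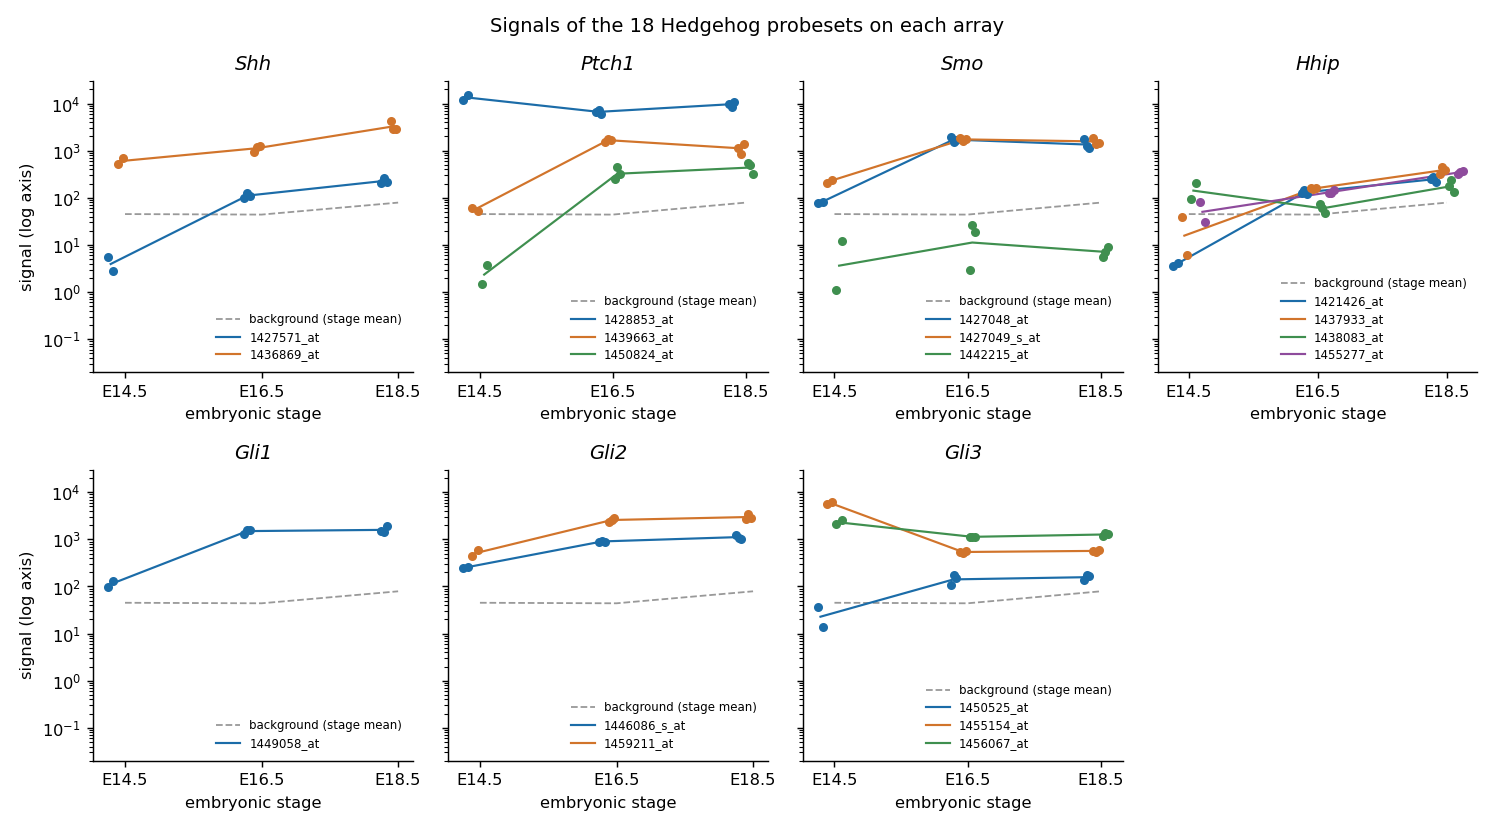
Signals of the 18 probesets on each array on a log axis, 1 panel per gene, with stages from E14.5 to E18.5 along the x axis. Points are arrays, lines join the stage means and the dashed line is the background; Ptch1, Hhip and Gli3 each have probesets that part in direction over the first interval.

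Changes from E14.5 to E16.5 were larger and more numerous, and the probesets of one gene often disagreed. Of the 18 probesets 13 rose, 4 fell and 1 did not pass, where 38.9% of all probesets rose and 18.7% fell. With the brightest probeset of each gene, 5 of 7 genes rose and 2 fell, where 37.3% of all genes rose and 21.3% fell. The median change was 2.14 over the 18 probesets and 0.38 over all probesets. For Ptch1, Hhip and Gli3, called probesets of the same gene moved in opposite directions, as did those of 2540 of the 5068 genes (50.1%) with 2 or more called probesets, against 83 of 498 genes (16.7%) in the later interval.

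The Shh probeset 1436869_at read 946, 1209 and 1248 on the E16.5 arrays, against 514 and 697 on the E14.5 arrays, without overlap. The log2 change was 0.89 ± 0.21 (limma, adjusted p = 0.00386), or 1.88-fold. It was not called after quantile normalization (0.45, adjusted p = 0.0905) or without the first E14.5 array (0.68, adjusted p = 0.0520), and it turned to -0.058 after centring each array on its median. The probeset 1427571_at was at or below background on both E14.5 arrays, with signals of 5.60 and 2.76, and was at least 2.46-fold higher at E16.5 (adjusted p = 1.31e-05). The direction of Shh between E14.5 and E16.5 therefore depends on how arrays are scaled for the brighter probeset.

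The Ptch1 probesets disagreed here as well. Probeset 1428853_at read 6583, 7372 and 6063 on the E16.5 arrays, against 12038 and 15254 on the E14.5 arrays, and fell by 1.02 on the log2 scale (adjusted p = 0.000123). Probeset 1439663_at read 1537, 1785 and 1698 at E16.5, against 61.4 and 51.7 at E14.5, and was 29.6-fold higher. The dimmest probeset, 1450824_at, was at least 7.17-fold higher at E16.5, because both E14.5 arrays were below background. For Smo both probesets above background were higher at E16.5, 1427048_at by 21.8-fold (1929, 1536 and 1712 against 77.7 and 80.0) and 1427049_s_at by 7.70-fold.

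Gli1 read 1321, 1572 and 1612 on the E16.5 arrays, against 97.0 and 129 on the E14.5 arrays, which was 13.4-fold higher (log2 change 3.56 ± 0.19). Gli2 was 5.07-fold higher with 1459211_at, at 2310.0, 2621 and 2812 against 439 and 587, and 3.57-fold higher with 1446086_s_at. The Gli3 probesets split, since 1455154_at read 526, 518 and 573 at E16.5, against 5720.3 and 6220.0 at E14.5, and was 11.1-fold lower, 1456067_at was 2.02-fold lower, and 1450525_at, below background on both E14.5 arrays, was at least 3.13-fold higher. For Hhip, 3 probesets were at least 2.17-fold, 2.88-fold and 3.47-fold higher, and 1438083_at fell by 1.07 on the log2 scale (adjusted p = 0.0291).

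**Figure D3:**
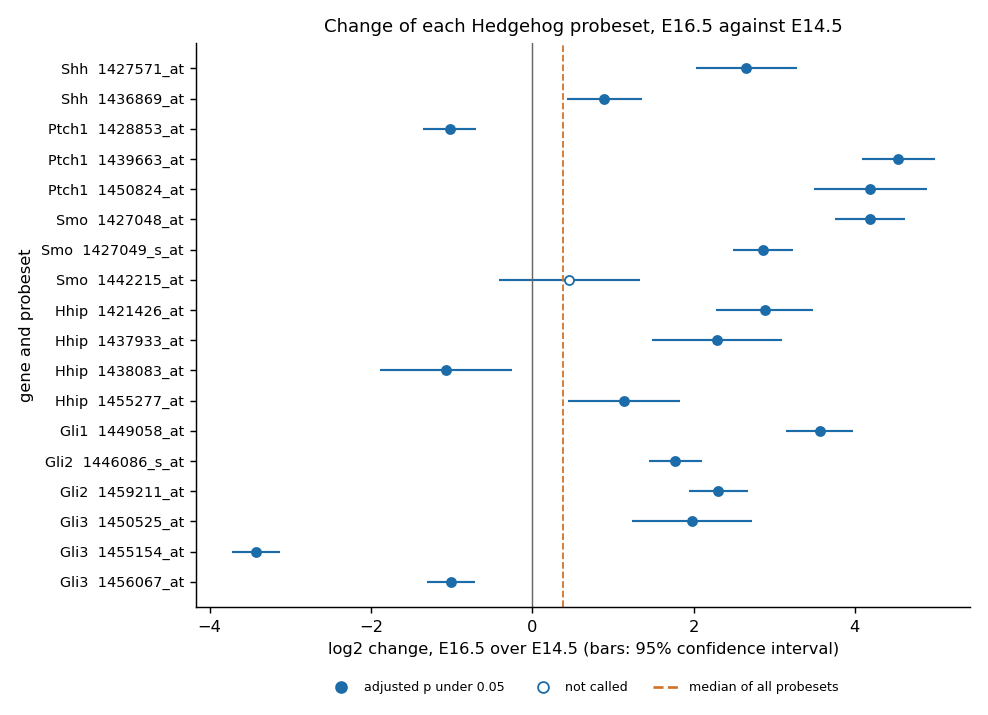
Log2 change of each Hedgehog probeset, E16.5 over E14.5, with 95% confidence intervals, filled where called. Most lie to the right of the median of all probesets, 0.38, and 4 lie to the left of 0, namely 1 probeset each of Ptch1 and Hhip and 2 of Gli3.

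Across the whole interval, E18.5 against E14.5, 13 of the 18 probesets rose and 3 fell, where 42.9% of all probesets rose and 16.9% fell. Shh probeset 1436869_at was 5.47-fold higher at E18.5 (log2 change 2.42 ± 0.21), and 1427571_at was at least 5.05-fold higher. Gli1 was 14.2-fold higher, and the Smo probesets 17.1-fold and 6.95-fold higher. The 3 falls were Ptch1 probeset 1428853_at, which fell by 0.48 on the log2 scale, and Gli3 probesets 1455154_at and 1456067_at. The difference between the second and the first change was called for 14 of the 18 probesets, 4 positive and 10 negative, where 44.9% of all probesets were called in either direction. Over all 34945 probesets 5523 of these calls were positive and 10154 negative, so negative calls were the more numerous there too. For Shh probeset 1436869_at that difference was 0.63 ± 0.34 and did not pass (adjusted p = 0.161). E18.5 against E14.5 reuses the arrays of those stages, and the difference of changes reuses all 8 arrays. These comparisons are therefore not independent of those above or of each other.

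Other genes of the pathway were taken from 4 lists by their brightest probeset. From E16.5 to E18.5, 0 of 7 ligand and release genes rose or fell by limma, with a median change of 0.030, beside 0.12 over all genes. At an unadjusted p under 0.05, 1 rose and 1 fell. The other ligand genes were close to background, with Ihh above it on 1 of 2 E14.5, 2 of 3 E16.5 and 1 of 3 E18.5 arrays, and Dhh on 2 of 2, 3 of 3 and 1 of 3. Of 6 receptor and co-receptor genes, 0 rose and 0 fell, with a median of 0.27 and 1 rise at an unadjusted p under 0.05. Among 24 cytoplasmic and ciliary regulators 1 rose and 2 fell, with a median of 0.11, which is near the 6.9% and 5.23% over all genes and so shows nothing particular to the list. The riser was Spop, an adaptor that directs Gli proteins to degradation, at 3270, 3705 and 3802 on the E18.5 arrays, against 2358, 2354 and 2180 on the E16.5 arrays (log2 change 0.64 ± 0.11, adjusted p = 0.00539). Prkaca and Csnk1d, kinases that phosphorylate Gli proteins, fell by 0.59 and 0.58 on the log2 scale (adjusted p = 0.0350 and 0.0109).

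Among 9 genes reported elsewhere as Hedgehog targets, 1 rose and 0 fell from E16.5 to E18.5. Over all genes 6.9% rose and 5.23% fell, so the count is near that share. The list median was 0.25, beside 0.12 over all genes. The riser was Mycn, a transcription factor that drives proliferation. Mycn read 1022, 954 and 1147 on the E18.5 arrays, against 410.1, 379 and 259 on the E16.5 arrays, a 3.03-fold difference without overlap (log2 change 1.55 ± 0.21, limma adjusted p = 0.00208). From E14.5 to E16.5 the lists moved more, with 1 rise and 1 fall among the ligand genes, 2 and 2 among the receptors, 15 and 7 among the cytoplasmic and ciliary genes and 1 and 3 among the targets, where 37.3% of all genes rose and 21.3% fell. Their medians were 0.60, 0.27, 1.17 and -0.67, beside 0.30 over all genes. The largest changes that met the naming rule were rises of Csnk1e (at least 36.0-fold), Arrb2 (8.13-fold), Rab34 (7.15-fold), Rab23 (4.51-fold), Gpc3 (4.17-fold) and Stk36 (at least 1.74-fold) and falls of Gsk3b and Boc by 2.55 and 2.25 on the log2 scale. The same 8 genes were named for E18.5 against E14.5.

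**Figure D4:**
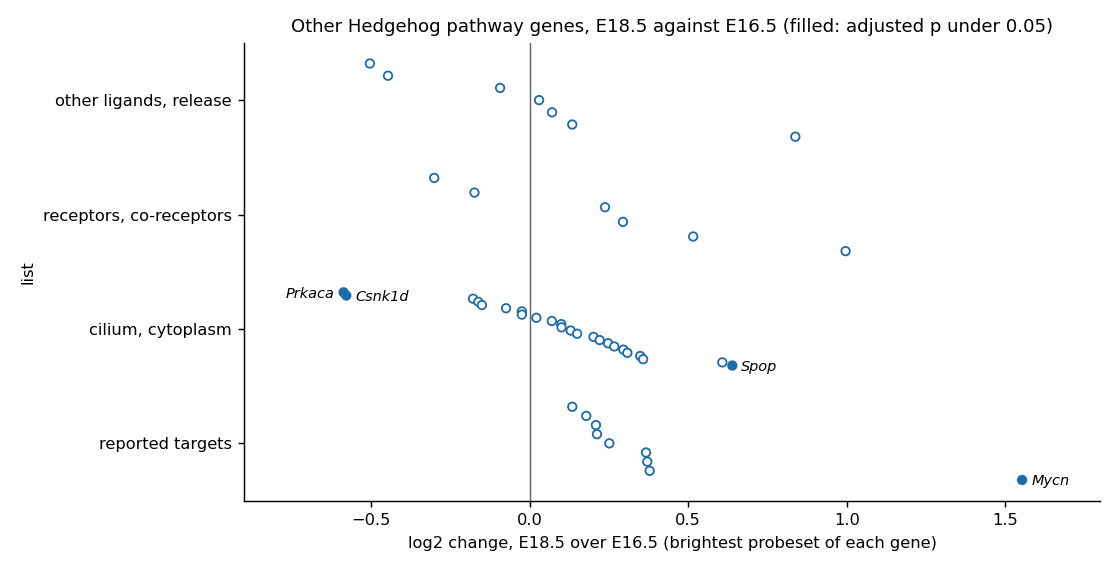
Log2 change of the other Hedgehog pathway genes, E18.5 over E16.5, 1 point per gene in 4 rows by list. Filled points were called by limma, and they are Mycn at 1.55, Spop at 0.64, Prkaca at -0.59 and Csnk1d at -0.58.

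Markers of the cells that make and receive the signal were read in the same comparison, in which 6.9% of all genes rose and 5.23% fell, with a median change of 0.12. Of 21 measured genes of the hair placode, germ and peg, 7 rose and 0 fell from E16.5 to E18.5, with a median change of 0.58 and 11 rises and 1 fall at an unadjusted p under 0.05. The risers included Krt17, a keratin of the follicle epithelium, with a log2 change of 1.51, and the bud transcription factors Lhx2, Msx2 and Sox9, with 1.93, 1.91 and 1.32. Their mean log2 signal per array ran from 9.26 to 9.53 at E18.5, against 8.71 to 8.94 at E16.5. In the inner root sheath and hair shaft list, 8 of 12 measured genes rose and 0 fell, with a median of 4.76 and a mean log2 signal of 8.51 to 10.82 at E18.5, against 5.63 to 5.90 at E16.5. The first E18.5 array was the highest in both lists and for Shh probeset 1436869_at, but it was the lowest of the E18.5 arrays for Shh probeset 1427571_at.

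Of 13 dermal condensate and papilla genes, 3 rose (Corin, Bmp4 and Cxcr4, by 2.16, 1.13 and 0.95) and 1 fell (Crabp1, by 1.40), with a median of 0.38. Their mean log2 signal was 8.96 to 9.15 at E18.5, against 8.64 to 8.83 at E16.5. In the lists of other cell types, 4 of 4 adipocyte genes were higher, 2 of 10 skeletal muscle genes higher and 2 lower, 2 of 8 dermal fibroblast genes higher, 1 of 7 basal epidermal genes higher, 1 of 6 suprabasal genes higher and 2 lower, and 1 of 5 endothelial genes lower. With shares of 6.9% higher and 5.23% lower over all genes, a single call in lists this short is near that background. The endothelial list still had a median change of -0.43, beside 0.12 over all genes. At an unadjusted p under 0.05, 3 of its genes fell and 0 rose. The Schwann cell, cartilage, Merkel cell and smooth muscle lists had 0 calls by limma, and 1, 2, 0 and 1 of their genes passed at an unadjusted p under 0.05. The part of these cell types in the Hedgehog gene changes was not tested.

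**Figure D5:**
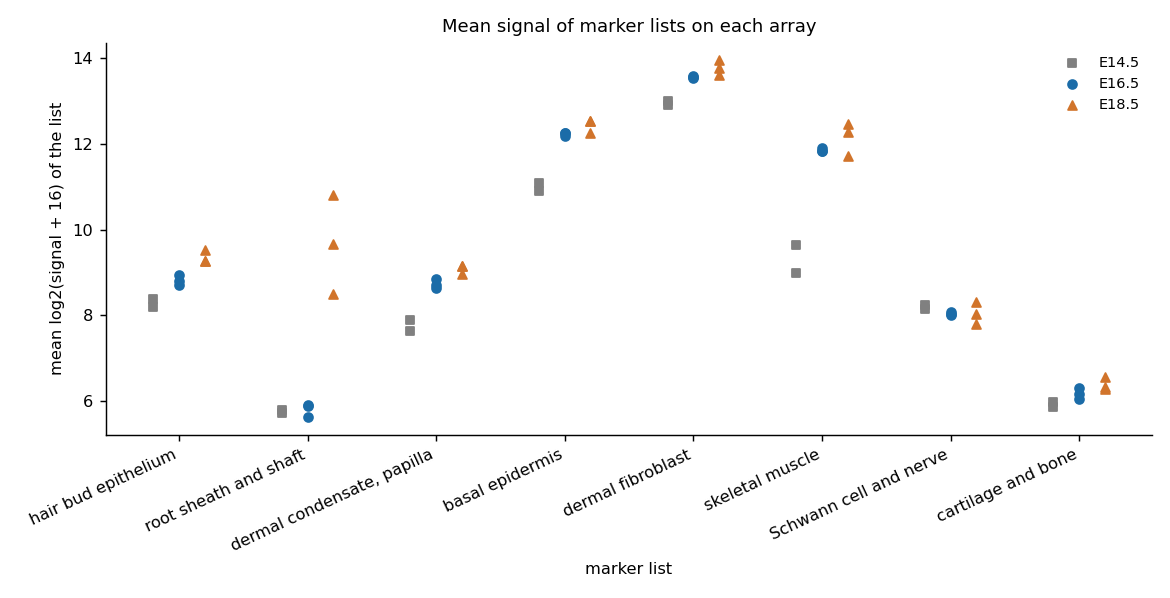
Mean log2(signal + 16) of 8 marker lists on each array, with 1 point per array in stage order from E14.5 to E18.5. The hair bud epithelium list runs from 9.26 to 9.53 on the E18.5 arrays and from 8.71 to 8.94 on the E16.5 arrays, and the root sheath and shaft list shows the widest separation of these stages, from 8.51 to 10.82 against 5.63 to 5.90.

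Genes whose stage profile was closest to that of a member were found by the root-mean-square difference of log2 signals over the 8 arrays after each probeset was centred on its own mean, over 26118 probesets. The 5 closest to Shh probeset 1436869_at were Oas1a, Rnaset2a, Ndp, P2rx3 and Dct, with differences of 0.163 to 0.203, beside a median of 0.981. Several of these were dim, with Rnaset2a above background on 0 E14.5, 0 E16.5 and 2 E18.5 arrays, P2rx3 on 0, 1 and 3, and Ndp on 0, 3 and 3, so part of their likeness rests on signals at background. Those closest to Gli1 were Ap5s1, Pabpc4, Acin1, Mfap2 and Ift122, with 0.0915 to 0.134 and a median of 1.31. Of these, Ap5s1 and Ift122 were above background on 0 E14.5 arrays. Those closest to Ptch1 probeset 1428853_at were Nfib, Pcgf3, Irf2bpl, Surf2 and Metap2, with 0.0983 to 0.113 and a median of 0.865. For Pabpc4, Acin1, Ift122, Nfib and Pcgf3 the probeset found was not the brightest of its gene, and other probesets may differ. These profiles share the step between E14.5 and the later arrays described above.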

How the data were processed

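The deposited values are signal intensities on a linear scale for 45101 probesets of Affymetrix Mouse Genome 430 2.0 arrays, made by the authors. Per the submitters' processing notes, Affymetrix Expression Console 1.1 and PLIER 2.0 were used. The sources used here do not give the background correction or normalization, or say if E14.5 was summarised with the other arrays. Per the labels' protocols, RNA was extracted with Trizol and labelled from random hexamers as sense DNA, a procedure for whole-transcript arrays, so how targets were made for this 3′ array is uncertain.

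The 34945 non-control probesets with 1 gene symbol were fitted together. limma 3.58.1 (R 4.3.3) fitted 1 mean per stage on log2(signal + 16) with a variance trend, and p-values were adjusted by Benjamini-Hochberg over all of them. The fit was tested on simulated data. A fold is the ratio of geometric means, or "at least" the ratio to background where an array of the dimmer stage was at or below it. Number of arrays limits the precision.

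The 7 genes and all lists were chosen with earlier results of these data known. All member probesets were named; of the other pathway lists, up to 8 called genes per comparison were named by size of change, with arrays that did not overlap and the higher mean above background; other examples of marker lists were chosen after their values were seen. Other settings were quantile normalization, median centring, pseudocounts of 1 and 64, a filter on dim probesets, other variance settings, array weights, 1 probeset per gene, only the stages compared, and each array left out.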

Additional observations from a re-analysis of the deposited data

How the results depend on the processing

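The count of 6 Hedgehog probesets called between E18.5 and E16.5 was 2 after quantile normalization, 3 of 7 with 1 probeset per gene and between 1 and 7 when single arrays were left out. It was 1 without each E16.5 array in turn, and 2, 3 and 4 without E18.5 arrays 1, 2 and 3; calls over all probesets dropped to 1662, 1563 and 1208 without those E16.5 arrays, beside 3742 with all arrays and 3147, 3259 and 4120 without E18.5 arrays 1, 2 and 3. The cause was not tested. With 1 probeset per gene the counts were 7 for E16.5 over E14.5, 7 for E18.5 over E14.5 and 5 for the second change minus the first, beside 17, 16 and 14, since fewer probesets were tested. Under all other settings these 3 counts stayed within 1.5 times.

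Some changes reversed in sign, and none was called on the reversed side. Gli1 between E18.5 and E16.5 was -0.029 after median centring and ran from -0.042 to 0.16 when single arrays were left out. Gli3 probeset 1450525_at was -0.025 after quantile normalization and ran from -0.033 to 0.27 with arrays left out, and 1455154_at was -0.040 after median centring. Between E16.5 and E14.5, median centring gave -0.058 for Shh 1436869_at and -0.49 for Smo 1442215_at. The cause was not tested.

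The median of all probesets between E16.5 and E14.5 was 0.38, -0.025 after quantile normalization and -0.57 after median centring, and the share of calls that were higher was 67.5%, 51.4% and 33.1%. Between E18.5 and E16.5 those shares were 58.6%, 50.8% and 38.5%. No paired analysis was possible because the replicate numbers pair no arrays across stages.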

Other observations

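Each Shh probeset was also set against the brightest probeset of every other Hedgehog gene within the same array, a comparison chosen after the values were seen. The log2 difference was signed, Shh minus the other gene. With Shh 1436869_at, it was higher at E18.5 than at E16.5 for Ptch1, Smo, Gli1, Gli2 and Gli3. The shifts were 0.98, 1.67, 1.44, 1.32 and 1.45. Shh lay below Ptch1 on every array of both stages, so that gap narrowed. With Shh 1427571_at these shifts were smaller, at 0.40, 1.09, 0.85, 0.73 and 0.86. In all 10 the 3 arrays of one stage lay apart from those of the other. Both Shh probesets already lay apart by themselves, and the share over all genes set against Shh was not counted. The shifts share the same Shh probesets and arrays, so they are not independent of each other. Against Hhip the sign depended on the Shh probeset, at 0.32 with overlapping arrays for 1436869_at and -0.27 without overlap for 1427571_at. An exact two-sided permutation test gave p = 0.1 for each shift without overlap, the smallest that 3 arrays against 3 allow, and 0.109 after Benjamini-Hochberg adjustment over the 12 comparisons. For the shift with overlap p was 0.5 (exact permutation, adjusted p = 0.5).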
